A study of Mus musculus with 7 samples.

Results

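The 10 genes described here encode RNA-binding proteins of the Celf, Mbnl, Msi, Qk and Elavl families, chosen by name as regulators of splicing, stability and translation. They are 10 of the 4953 genes with an Argonaute crosslink, and they held 85 of the 14054 crosslink positions. Each position was assigned on the same strand to GENCODE M21 on mm10. No member position lay in another gene on its strand. The members were chosen without use of their measured values, but with earlier results on these data known.

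The method, PAR-CLIP, feeds cells 4-thiouridine, a photoreactive base that enters new RNA, joins RNA to bound protein by ultraviolet light and recovers both with an antibody. Retinas from CD-1 mice at postnatal day 0 were explanted and cultured for 24 h with 4-thiouridine at 0.1 mM in medium holding 20% horse serum, then irradiated at 365 nm. There were 5 libraries made with the Argonaute antibody 2A8 and 2 with an IgG1 isotype control, each from 6 pooled retinas, and the labels give no genotype or drug that differs between them. The deposited tables pool the Argonaute libraries and give for each position the number of libraries, from 2 to 5, that hold it. This score is the authors' own. Values per library, read depth and the IgG libraries were not analysed here, so no value has a replicate error. Intervals are exact 95% Clopper-Pearson intervals and cover counting error only.

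Argonaute carries microRNAs, whose seed, bases 2 to 8, pairs with target mRNA, mostly in 3′ UTRs, and lowers its translation or stability. Celf and Mbnl proteins control alternative splicing and mRNA decay, often in opposite directions during development. Musashi proteins, Msi1 and Msi2, regulate translation in neural progenitors. Quaking, encoded by Qk, acts in splicing, RNA stability and glial differentiation, and its transcripts end in alternative last exons. Elavl2, Elavl3 and Elavl4 are the neuronal Hu proteins, which bind AU-rich and U-rich 3′ UTR sequence, and in retina they mark amacrine and ganglion cells.

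The sequences that carry the results are the seed matches that lie directly at the crosslinked base. A match was counted where the reverse complement of seed bases 2 to 8 (a 7mer-m8, or an 8mer when A follows) had its start between 1 nt upstream and 3 nt downstream of the crosslinked base. Of 40 microRNA families listed, 36 had a mature sequence in the RefSeq table (GRCm38.p6), and miR-124, miR-1, miR-133 and miR-122 were not searched. The mature sequences of the families discussed most are shown with the seed in capitals.
mmu-miR-181a-5p: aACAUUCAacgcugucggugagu
mmu-miR-182-5p: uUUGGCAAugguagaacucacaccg
mmu-miR-96-5p: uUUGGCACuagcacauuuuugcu
mmu-miR-27a-3p: uUCACAGUggcuaaguuccgc
mmu-miR-26a-5p: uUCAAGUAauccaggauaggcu
mmu-miR-101a-3p: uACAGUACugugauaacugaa
mmu-miR-16-5p: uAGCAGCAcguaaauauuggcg
mmu-miR-183-5p: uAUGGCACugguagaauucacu
mmu-miR-216a-5p: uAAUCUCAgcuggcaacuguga
mmu-miR-216b-5p: aAAUCUCUgcaggcaaauguga

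The 14 crosslinks of the 10 genes with such a match are shown next, read 5′ to 3′ from GENCODE transcripts (mm10). Each run has 30 nt, the crosslinked T is base 11, and capitals mark the match.
Mbnl2, chr14:120430502-120430531, plus strand, miR-181 8mer, 4 libraries: acttttgagatTGAATGTAaaatattttaa
Mbnl1, chr3:60626921-60626950, plus strand, miR-181 7mer-m8, 3 libraries: aactgacagaTGAATGTgccaagcaaaacc
Elavl4, chr4:110206075-110206104, minus strand, miR-181 7mer-m8, 3 libraries: ctttgatgcatTGAATGTtctttcatagct
Mbnl2, chr14:120431294-120431323, plus strand, miR-182 8mer, 3 libraries: ataaatattatTTGCCAAAagtttgtttat
Elavl2, chr4:91252578-91252607, minus strand, miR-182 8mer, 2 libraries: agcagtaccTTGCCAAAgagataagagcct
Qk, chr17:10209231-10209260, minus strand, miR-27 7mer-m8, 2 libraries: cagaggcagttACTGTGAgagacttgtagg
Qk, chr17:10213656-10213685, minus strand, miR-27 7mer-m8, 2 libraries: gctcgtgagatACTGTGActtggggactgt
Qk, chr17:10214941-10214970, minus strand, miR-26 8mer, 4 libraries: ctattgcacatTACTTGAAgcattttaaaa
Qk, chr17:10208993-10209022, minus strand, miR-183 7mer-m8, 4 libraries: tagaacaaagtGTGCCATgagagaaaaact
Mbnl1, chr3:60627925-60627954, plus strand, miR-101 8mer, 5 libraries: ttttcctgattGTACTGTAcatctattaaa
Mbnl1, chr3:60628769-60628798, plus strand, miR-130 7mer-m8, 2 libraries: aggttgactttTTGCACTtctgtatatagt
Msi2, chr11:88340534-88340563, minus strand, miR-30 8mer, 2 libraries: gcatatgaaatTGTTTACAaaagaaacact
Celf2, chr2:6545710-6545739, minus strand, miR-15/16 7mer-m8, 5 libraries: gaaagtgacgtTGCTGCTgcgtagactctg
Mbnl2, chr14:120396469-120396498, plus strand, coding sequence, miR-9 8mer, 2 libraries: cttcatcccttACCAAAGAgacaagcactt

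The labelled tissue could be checked only through which RNAs held crosslinks. Of 10 retinal genes listed, 9 had a position, led by Rorb and Neurod1, and Rax had none. Of 10 genes of pigment epithelium, microglia, vessels and other cells, 2 had any, Kdr and Pdgfra. The 53 exonic positions of the 10 genes were all T in the transcript, the base that 4-thiouridine replaces, like the other exonic crosslinks. This bears on coordinates and strand, not on the tissue.

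The crosslinks were spread very unevenly over the 10 genes. Celf2 had 22 positions, Qk 20 and Msi2 18, while Mbnl1 and Mbnl2 had 7 each, Celf1 6 and Msi1 2. Elavl2, Elavl3 and Elavl4 had 1 position each. The median was 6.5 positions per gene, beside 2 over all genes with a crosslink, and 3 of the 10 genes had 10 or more, beside 3.23% of all such genes. Only 19 genes in the whole table, Celf2 included, had at least as many positions as Celf2.

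**Figure D1:**
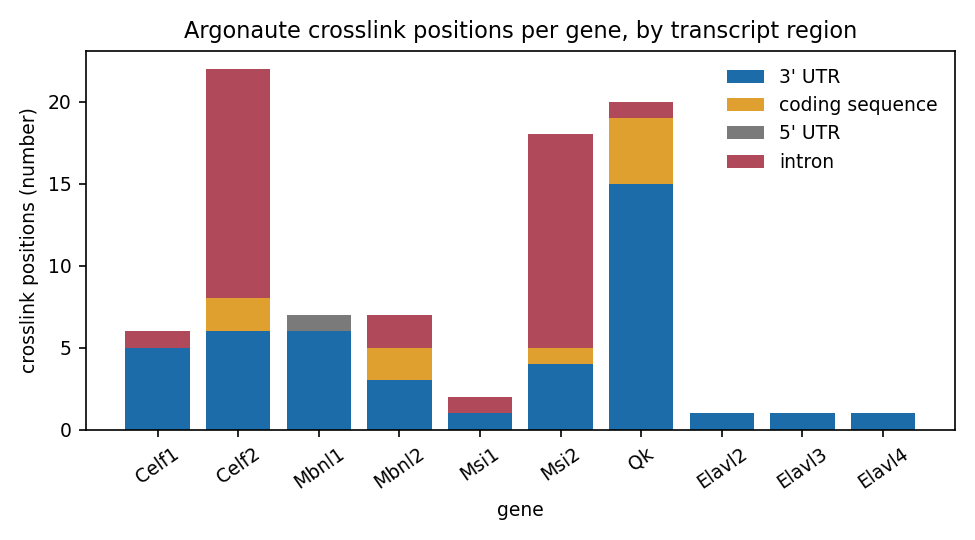
Number of Argonaute crosslink positions (y axis) in each of the 10 genes (x axis), stacked by annotated region. Intronic positions make up most of the bars of Celf2 and Msi2, 3′ UTR positions most of that of Qk, and each neuronal Elavl gene has 1 position.

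By region, 43 of the 85 positions (50.6%, 39.5 to 61.6) lay in 3′ UTRs, beside 52.2% of all crosslinks. Introns held 32 (37.6%, 27.4 to 48.8), beside 17.9% of all crosslinks. Coding sequence held 9 (10.6%, 4.96 to 19.2), beside 20.8%, and a 5′ UTR held 1, in Mbnl1. Every one of the 10 genes had at least 1 position in its 3′ UTR, beside 3244 of the 4953 genes with a crosslink. The 10 genes also had more positions each, with a median of 6.5 beside 2.

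The intronic positions came mostly from a pair of genes. Celf2 had 14 and Msi2 had 13, together 27 of 32 (84.4%, 67.2 to 94.7). In Celf2 and Msi2 27 of 40 positions were intronic (67.5%), and in the other 8 genes 5 of 45 were (11.1%, 3.71 to 24.1). Those 5 lay in Celf1, Mbnl2 with 2, Msi1 and Qk, and Mbnl1 and the neuronal Elavl genes had none. Celf2 and Msi2 also held 62.4% of the intron length of the 10 genes.

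Per length of intron, the 10 genes ranged from 0 to 4.93 positions per 100 kb. Mbnl1, Elavl2, Elavl3 and Elavl4 had 0, over 138, 142, 30.1 and 143 kb of intron. Celf2 (chromosome 2, 6539694 to 7509563, minus strand) had 1.48 intronic positions per 100 kb over 944 kb of intron, and Celf1 (chromosome 2, 90940382 to 91019497, plus strand) had 1.42 over 70.7 kb. Mbnl2 (chromosome 14, 120275669 to 120431697, plus strand) had 1.39 and Qk (chromosome 17, 10202601 to 10319854, minus strand) had 0.971. Msi2 (chromosome 11, 88339382 to 88718513, minus strand) was higher, with 3.53 over 369 kb, and the 4.93 of Msi1 rests on 1 position in 20.3 kb. The median over the 6 member genes with an intronic position was 1.45, beside 1.34 over the 1326 genes with one.

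Within Celf2, a splicing factor gene with many alternative starts, the intronic positions were not spread over the whole gene. The first 649 kb, or 66.9% of its annotated length, held no position. Of its 18 protein-coding transcripts, 12 start in that stretch, but only 6 in the first 500 kb. Intron 1 of transcript ENSMUST00000170438.7, which starts at 625 kb and spans 163 kb, held 11 of the 14. That is 6.74 positions per 100 kb. The other 3 lay in introns 1, 3 and 4 of ENSMUST00000142941.7. In Msi2, which had a coding position 1.14 kb from the gene start, intronic positions began at 10.1 kb and lay in introns 5, 6, 7 and 11 of ENSMUST00000092794.11, with 4, 6, 2 and 1 positions. RNA level along these introns was not measured in the tables.

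**Figure D2:**
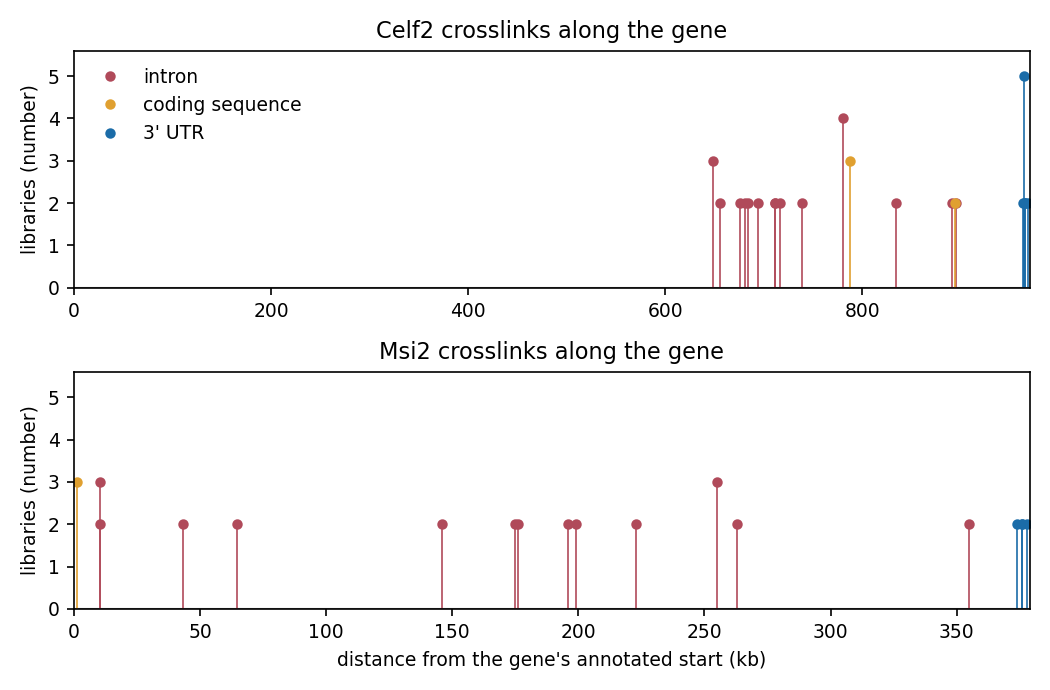
Crosslinks of Celf2 and Msi2 by distance from the annotated gene start (x axis, kb) and number of Argonaute libraries that hold them (y axis), coloured by region. Celf2 has none in its first 649 kb, while Msi2 has intronic positions from 10.1 kb onward.

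Most intronic positions were far from any annotated exon. The median distance was 16376 nt (lowest 42, highest 73162), and 31 of 32 were over 1000 nt away. The exception was in Msi1 (position 115433709 on chromosome 5), 42 nt from an exon. The introns concerned had a median length of 110 kb, so most of their length is far from an exon. These distances were not taken for the other intronic crosslinks. Genome sequence was not used here, so seeds in introns could not be read.

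Recurrence is the number of the 5 Argonaute libraries that hold a position, and its median was 2 in both 3′ UTRs and introns. Of the 43 positions in 3′ UTRs, 28 were in 2 libraries, 6 in 3, 6 in 4 and 3 in 5. Of the 32 intronic positions, 27 were in 2 libraries, 4 in 3, 1 in 4 and none in 5. In 3 or more libraries there were thus 15 of 43 in 3′ UTRs (34.9%, 21 to 50.9), beside 32.9% of all 3′ UTR positions. Among introns there were 5 of 32 (15.6%, 5.28 to 32.8), beside 8.97% of all intronic positions.

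This difference missed the threshold of 0.05 in a two-sided Fisher's exact test over positions (p = 0.0712, Benjamini-Hochberg q = 0.102 over the 2 planned tests), with an odds ratio of 2.85 (0.836 to 11.5). In 4 or more libraries there were 9 of 43 3′ UTR positions (20.9%, beside 13.9% of all) and 1 of 32 intronic ones (3.12%, beside 1.67%), and that difference passed the test unadjusted (odds ratio 8.03, 1.01 to 371, Fisher's exact test, p = 0.0371). With 3 or more libraries and the gene as stratum the odds ratio was 1.4 (exact Cochran-Mantel-Haenszel test, p = 0.727). Positions of a gene share its transcript and are not independent. Over all regions, 3 of the 85 positions were in 5 libraries (3.53%, 0.734 to 9.97), beside 3.47% of all crosslinks.

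**Figure D3:**
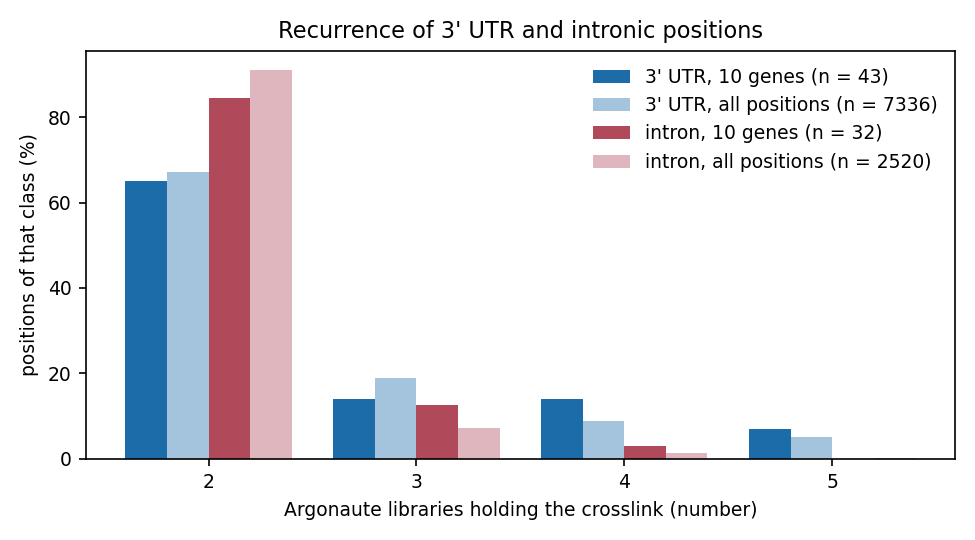
Share of positions (y axis, %) by the number of Argonaute libraries that hold them (x axis), for 3′ UTR and intronic positions of the 10 genes and of the whole table. Of the intronic positions of the 10 genes, 84.4% were in 2 libraries, against 65.1% of those in 3′ UTRs.

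The recurrent intronic positions were in 3 genes. Celf2 had one in 4 libraries (6729679 on chromosome 2), 7463 nt from the nearest exon, and one in 3 (6860821). Msi2 had those at 88463537 and 88708375 in 3 libraries, and Qk that at 10304038 in 3 libraries. All others, such as the 3 intronic positions of Celf1 and Mbnl2, were in 2.

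In coding sequence, 4 of 9 positions were in 3 or more libraries (44.4%, 13.7 to 78.8), beside 21.7% of all coding positions. Qk had 4 of the 9, at 10282863 in 3 libraries and 10282888 in 2, both in exon 2 of 8, and at 10216306 in 4 and 10216281 in 2, both in exon 6 of 8. The positions of each pair were 25 nt apart. The Qk position in 4 libraries had a match to seed bases 2 to 7 of miR-96 and miR-182 followed by A, a 7mer-A1, which was counted only as an alternative. Celf2 had coding positions in 3 and 2 libraries, Msi2 had one in 3, and Mbnl2 had 2, both in 2 libraries.

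Along 3′ UTRs, the 43 positions lay a median of 1563 nt after the stop codon (lowest 238, highest 5842). Of these, 6 were in the first 500 nt and 28 were beyond 1000 nt. The UTRs concerned were long, with a median of 6132 nt over the 43 positions. The same counts were not made for all 3′ UTR positions. Per kb of annotated 3′ UTR, Mbnl1 had the most positions (1.76), then Qk (1.22), Mbnl2 (1.09), Celf1 (0.815), Celf2 (0.811) and Msi2 (0.735). Msi1 had 0.527, Elavl2 0.403, Elavl4 0.383 and Elavl3 0.186, each of these last 4 from 1 position, so their order rests on single counts. The median was 0.773, beside 0.745 over the 3244 genes with a 3′ UTR position.

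**Figure D4:**
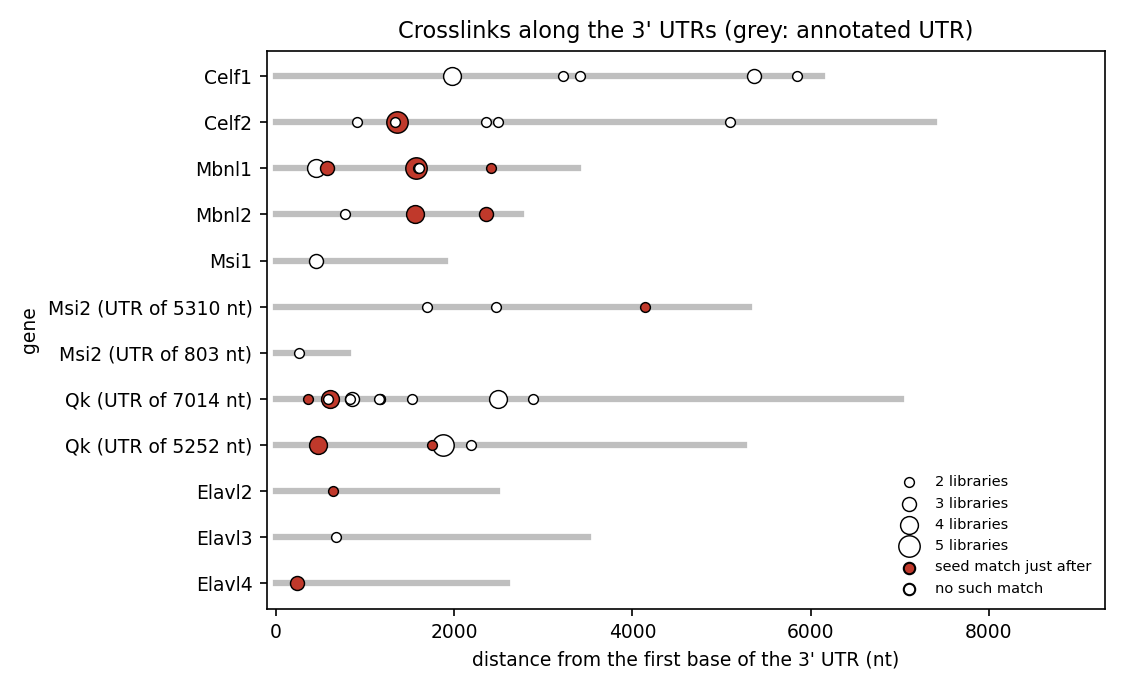
Crosslinks along the annotated 3′ UTRs (grey bars) by distance from the first base after the stop codon (x axis, nt), 1 row per gene or, for Msi2 and Qk, per transcript used. Circle size gives the number of Argonaute libraries and red marks a seed match at the crosslink; the Celf2 and Mbnl1 positions in 5 libraries are red and that of Qk is not.

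Qk (ENSMUSG00000062078.15) had the most 3′ UTR positions of the 10, 15 of the 43 (34.9%), and 16 genes of the table, Qk included, had at least as many. Its alternative last exons were both crosslinked. The 7014 nt UTR of ENSMUST00000233645.1 held 11 positions, of which 3 were in 3 or more libraries, and no other of its 4 protein-coding transcripts contains that stretch. The 5252 nt UTR of ENSMUST00000042296.8 held 4, of which 2 were in 3 or more libraries, at 10213561 in all 5 and at 10214960 in 4. These 4 positions are intronic in 1 to 3 of the other Qk protein-coding transcripts, so pre-mRNA and the shorter mRNA cannot be told apart there.

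Among the muscleblind genes, Mbnl1 (ENSMUSG00000027763.13, chromosome 3, 60472830 to 60629750, plus strand) had 6 positions in its 3′ UTR and none in introns. One was in 5 libraries (60627935), one in 4 (60626810), one in 3 (60626931) and 3 in 2. Mbnl2 (ENSMUSG00000022139.17) had 3, in 2, 4 and 3 libraries. Celf1 had 5, in 4, 2, 2, 3 and 2 libraries from the stop codon onward. Celf2 had 6, of which 1, at 6545729, was in 5 libraries and the others in 2. Msi2 had 4, all in 2 libraries, and Msi1 (chromosome 5, 115429599 to 115455698, plus strand) had 1 in 3 libraries.

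The neuronal Elavl genes each had a single 3′ UTR position, that of Elavl4 (chromosome 4, 110203722 to 110351909, minus strand) in 3 libraries and those of Elavl2 (chromosome 4, 91250763 to 91400785, minus strand) and Elavl3 (chromosome 9, 22015005 to 22052023, minus strand) in 2. They lay 238, 643 and 669 nt after the stop codon. In bulk retina, fewer cells of a type and less RNA per cell cannot be told apart, and transcript levels were not measured in these tables.

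Seed matches stood at 14 of the 53 exonic crosslinks (26.4%, 15.3 to 40.3), beside 25.7% of all exonic crosslinks with sequence. In 3′ UTRs they stood at 13 of 43 (30.2%, 17.2 to 46.1), beside 28.4%, and in coding sequence at 1 of 9, beside 22%. Of the 14, 7 were 8mers, a share not taken over all exonic crosslinks. In 12 of the 14 (85.7%, 57.2 to 98.2) a match started 1 nt after the crosslinked T, beside 69.4% of all exonic crosslinks with a match. The shares of the 10 genes are thus near those of the whole table.

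**Figure D5:**
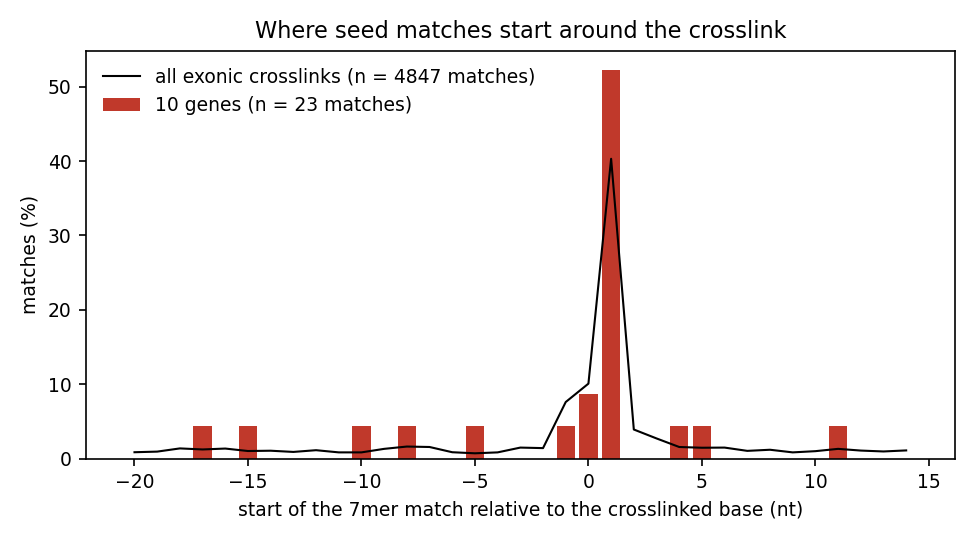
Start of 7mer matches relative to the crosslinked base (x axis, nt, positive after it) as a share of matches within 20 nt (y axis, %), with bars for the 10 genes and a line for all exonic crosslinks. Both peak at 1 nt after the crosslink, with 52.2% of matches in the 10 genes and 40.3% overall.

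The matches belonged to 11 families and 7 of the 10 genes. miR-181, a microRNA of the inner retina, had 3, in Mbnl1, Mbnl2 and Elavl4, all in 3′ UTRs and all in 3 or 4 libraries, and it was matched at 2.54% of all exonic crosslinks. miR-182, made from the same precursor RNA as miR-96 and miR-183 and abundant in photoreceptors, had 2, in Mbnl2 and Elavl2, beside 1.78% of all exonic crosslinks. Both hold a 7mer-A1 of miR-96 as well, and that of Elavl2 overlaps a 7mer-A1 of miR-9. These families cannot be told apart there. miR-27 had 2, both in Qk, 1 in each last exon, beside 0.393%. Their windows, shown above, share the letters ACTGTGA directly after the crosslinked T. The same letters are a 7mer-A1 of miR-128, so miR-27 and miR-128 cannot be told apart there. With 53 exonic crosslinks, counts of 2 or 3 per family are too few to read a difference from the whole table.

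The other matched families had 1 crosslink each. Qk had miR-183 and miR-26, each in 4 libraries. Mbnl1 had miR-101 in 5 libraries, and at 60628779, in 2 libraries, an overlapping pair of matches to miR-19 and miR-130 that cannot be told apart. Celf2 had miR-15/16 in 5 libraries, Msi2 had an 8mer of miR-30 in 2 and Mbnl2 had miR-9 in coding sequence in 2. Celf1, Msi1 and Elavl3 had no match. let-7 and miR-17, matched at 1.66% and 2.67% of all exonic crosslinks, had none in the 10 genes, which with 53 crosslinks is too few to read a difference from.

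Matches were counted by recurrence as well. They stood at 8 of the 19 exonic crosslinks in 3 or more libraries (42.1%, 20.3 to 66.5) and at 6 of the 34 in 2 libraries (17.6%, 6.76 to 34.5). Over the whole table these shares were 38.8% and 20.3%. The difference in the 10 genes, with an odds ratio of 3.31 (0.798 to 14.7), missed the threshold by the two-sided Fisher test, which is exact (p = 0.102, q = 0.102). It passed Fisher's exact test, unadjusted, over 3′ UTR positions alone, where the counts were 8 of 15 and 5 of 28 (odds ratio 5.02, 1.06 to 27, p = 0.0339), and under 3 other settings given in the closing section. Over all 3′ UTR crosslinks the shares were 41% and 22.3%.

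In 4 or more libraries there were 11 of the 85 positions (12.9%, 6.64 to 22), beside 9.81% of all positions. Of these, 10 were exonic, and 5 of the 10 had a match (50%, 18.7 to 81.3), beside 44% of all exonic crosslinks in 4 or more libraries. The 5 with none are shown here because they are as recurrent as the matched ones. The crosslinked T is again base 11, and capitals, where present, mark a 7mer-A1.
Qk, chr17:10213542-10213571, minus strand, 5 libraries: ttaaaactactgtgccttaacatgtttctt
Celf1, chr2:91015336-91015365, plus strand, 4 libraries: ctaaattatatctctggaaaaggccaggat
Mbnl1, chr3:60626800-60626829, plus strand, 4 libraries: gtaaccaaggtgcaccttgtatttaaaatc
Qk, chr17:10207108-10207137, minus strand, 4 libraries: aatgccttggttctcagtattatcactcta
Qk, chr17:10216287-10216316, minus strand, coding sequence, miR-96 7mer-A1, 4 libraries: accgctgtcaTGCCAAAcggaactcctcac

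The Qk position at 10207127 had an 8mer of miR-200b that started 4 nt after the crosslink, 1 nt past the counted range. No match to the 36 families was found at the other 3′ UTR positions among these, and that says only that these letters are not in the window. With 7mer-A1 matches included, 18 of 53 exonic crosslinks (34%) had a match. The 25.7% of all exonic crosslinks given above leaves 7mer-A1 matches out, and no whole-table share was taken with them. Of the 4 added, that of Celf1 at 91018726, in 3 libraries, and the coding one of Qk at 10216306 read TGCCAAA, a match to both miR-96 and miR-182. With these, 7mer-m8 or 7mer-A1 matches to miR-96 or miR-182 stood at 4 of 53 crosslinks (7.55%, 2.09 to 18.2), beside 4.19% of all exonic crosslinks.

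miR-216a and miR-216b, of which the study follows miR-216b in the making of amacrine cells, had 5 deposited sites in 4 of the 10 genes, Celf2 with 2, Mbnl2, Qk and Elavl2, beside 6.84% of all genes with a crosslink. They were linked to 4 of the 85 positions (4.71%, 1.3 to 11.6), beside 2.8% of all positions, which lies within the interval. Every deposited site lay at most 20 nt from a crosslink. The 10 genes had more positions each, with a median of 6.5 beside 2, so the shares of genes are not like for like. Of the 5 sites, 3 lay in 3′ UTRs and 2 in an intron, beside 45.9% and 20.1% of the 394 distinct sites. No site lay in Celf1, Mbnl1, Msi1, Msi2, Elavl3 or Elavl4.

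The Mbnl2 site, at 120430508 to 120430513 on chromosome 14, was deposited for both miR-216a and miR-216b. It read GAGATT, and the T before it completed a 7mer-m8 to miR-216a. Its crosslink, at 120430512 in 4 libraries, lay inside the site. The 8mer to miR-181 starts 1 nt after the same crosslink, so the 2 matches share a base. The Qk site, at 10213675 to 10213680 on chromosome 17, was deposited for miR-216a. It read TGAGAT, an offset 6mer to miR-216a, and its last base was the crosslinked T of 10213675, in 2 libraries. The miR-27 match, also a 7mer-A1 of miR-128, starts at the next base. The Elavl2 site, at 91252586 to 91252591 on chromosome 4, was deposited for miR-216b. It read AGAGAT, an offset 6mer to miR-216b, and started 6 nt after the crosslink at 91252597, in 2 libraries. There the 8mer to miR-182 starts 1 nt before the crosslink and its last base is the first base of the site.

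All 3 3′ UTR sites of miR-216 in the 10 genes thus had a longer match to another family at their crosslink. Over the whole table, 36 of 183 3′ UTR crosslinks linked to a miR-216 site (19.7%, 14.2 to 26.2) had a match to another family by the same rule. The Celf2 sites, at 6792162 to 6792167 and 6792172 to 6792177 on chromosome 2, were 10 nt apart from start to start in intron 1 and shared a crosslink at 6792177, in 2 libraries and 69961 nt from the nearest exon. One was deposited for both microRNAs and the other for miR-216a, and their sequence was not read here.

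Of 45 related RNA-binding protein genes listed for comparison, 36 had crosslinks, 32 of them in a 3′ UTR and 9 in introns, and 0 had a miR-216 site. Their 136 positions were 66.9% in 3′ UTRs and 15.4% intronic, and 27.9% were in 3 or more libraries, beside 25.6% of all crosslinks and 28.2% (24 of 85) in the 10 genes. The most positions were in Rbfox2, a splicing factor gene, with 13, of which 11 lay in the 3′ UTR. Hnrnpa2b1 had 9, Zfp36l1, which promotes decay of AU-rich mRNAs, had 8, and Celf4 and Ptbp2 had 6, as did Srrm4. In Celf4, as in Srrm4, 5 of 6 positions were intronic. Mbnl3, Celf5, Celf6 and Rbfox3 had none, Elavl1 had 2 and Celf3 had 1.

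Genes with the most similar division over regions were taken from the 157 other genes with 10 or more positions, by the sum of absolute differences of the shares in 3′ UTR, coding sequence, introns and other classes. For Msi2 the nearest was Cadm1 (0.0327), with 12 of 17 positions intronic, then Snap25 (0.156) and Pcdh9 (0.244). For Celf2 they were Cadm1 (0.139), Rorb (0.152) and Magi2 (0.167). For Qk they were Ythdf3 (0.0667), with 9 of 12 in the 3′ UTR, and Dennd1b and Tsc22d2 (0.0818 each). These distances are descriptions and rest on few positions per gene.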

How the data were processed

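PAR-CLIP was done on cultured neonatal mouse retina with 5 Argonaute and 2 IgG libraries. CASAVA 1.8.2, STAR and bedtools are listed, with mm10, in the submitters' processing notes; parameters were not given in the sources. The authors' score in the deposited crosslink table counts the Argonaute libraries that hold a position (2 to 5), per the file headers. The deposited miR-216 table has no header; its 404 scores each equal that of a crosslink at most 20 nt away, to which the site was linked. Read depth is unknown.

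Each position took the first class it met in same-strand GENCODE M21 models, in the order 3′ UTR, coding, 5′ UTR, other exon, intron, with coding regions from protein-coding transcripts only. Sequence was read from spliced transcripts in windows of 41 nt, with sequence for 53 of the 85 positions. Groups came from sample titles. The members, lists and tests were chosen with earlier results of these data known. All 10 members are named, with up to 5 of the related genes with the most positions, every one with a miR-216 site, and the 3 nearest genes by region. Srrm4, Elavl1, Celf3, Mbnl3, Celf5, Celf6, Rbfox3 and the genes of the tissue check were named after their values were seen. Fisher's and Cochran-Mantel-Haenszel exact tests used SciPy 1.17.1 (Python 3.11.15), and these and the seed search were tested on simulated data. Alternatives changed annotation, merging, genes, thresholds, match starts and match types. The planned test of seeds in 3′ UTRs against introns was not run, since intron sequence was not used here.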

Additional observations from a re-analysis of the deposited data

How the results depend on the processing

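Of 64 values recomputed under alternatives, 58 were kept and 0 reversed, but many were shares or counts with no test or threshold. Among the tests, recurrence by region changed side of the threshold in 1 of 17 alternatives. Seed matches by recurrence did so in 4 of 9. The share of positions in 3′ UTRs or introns stayed within its interval under every alternative run. Among these were each gene left out, with 28.6% intronic without Celf2 and 47.7% without Qk. Leaving out single genes does not show the joint weight of Celf2 and Msi2. Without both, 5 of 45 positions (11.1%) were intronic, below the interval of 27.4 to 48.8. The comparison of recurrence in 3′ UTRs and introns passed the test with 4 or more libraries in place of 3 (odds ratio 8.03, 9 of 43 against 1 of 32, Fisher's exact test, p = 0.0371) and under none of the others (p = 0.0646 to 0.727). The share of exonic crosslinks with a seed match was 13.2% with 8mers only, and this was not taken over the whole table. The comparison of seed matches by recurrence passed the test with starts 0 to 2 nt after the crosslink (odds ratio 4.09, 0.944 to 19.8, p = 0.0443), with starts 1 to 15 nt after (4.07, 1 to 18, p = 0.0291), with 7mer-A1 matches (3.52, 0.928 to 14.2, p = 0.04) and over 3′ UTRs alone (5.02, 1.06 to 27, p = 0.0339), by Fisher's exact test and unadjusted. The intervals for starts 0 to 2 nt after and for 7mer-A1 matches include 1. The comparison did not pass with the gene as stratum (3.98, exact Cochran-Mantel-Haenszel test, p = 0.0814), nor under the other alternatives run (Fisher's exact test, p = 0.102 to 0.234). The cause was not tested. No paired analysis was possible because libraries are pooled in both tables, and leaving out single libraries could not be done either. Precision is limited by the 85 positions, and read depth is unknown.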

Other observations

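The tetramer TGCC, searched on the transcript strand after the windows had been seen, started between 1 nt upstream and 3 nt downstream of the base at 10 of the 53 exonic crosslinks (18.9%, 9.44 to 32). Over all exonic crosslinks the share was 15.6%. Among crosslinks with no seed match it stood at 7 of 39 in the 10 genes, among them the Qk position in 5 libraries, and at 16.7% overall. It is part of the matches to miR-96, miR-182 and miR-183.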
